A study of Mus musculus with 8 samples.

Results

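The acyl-CoA thioesterases studied here are the products of 10 mouse genes (Acot1, Acot2, Acot3, Acot4, Acot6, Acot8, Acot9, Acot11, Acot12 and Acot13), taken by symbol from the array annotation. Of the 20165 features tested on the arrays, 9 are these genes, and Acot6 gave no usable signal. Their levels were measured in liver from 8 male C57BL/6 mice that had been bought at 5 weeks of age, 1 Cy3-labelled Agilent array per mouse. The groups were high-fat diet (HFD, 58% fat, 25.5% carbohydrate and 16.4% protein, 5.2 kcal/g) for 3 months, HFD for 9 months, normal diet (ND, 4.8% fat, 50.21% carbohydrate and 20.78% protein, 3.8 kcal/g) for 3 months and ND for 9 months, with 2 mice in each. Food was freely available on both diets. Mice of the 9-month groups were also older at collection than mice of the 3-month groups, so feeding time and age cannot be told apart.

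Acyl-CoA thioesterases split a fatty acyl-CoA into the free fatty acid and coenzyme A, the reverse of the step by which acyl-CoA synthetases activate fatty acids. In liver they stand beside beta-oxidation, lipid synthesis and bile acid formation, and by freeing coenzyme A inside an organelle they keep it available to the oxidation enzymes there. The family has type I members with an alpha/beta-hydrolase fold and type II members with a hotdog fold, and both types are spread over the cytosol, mitochondria and peroxisomes. Several type I genes are textbook targets of PPARα, the nuclear receptor that senses fatty acids in liver. The cytosolic members are Acot1 (type I), Acot11 and Acot12 (type II). Acot2 (type I), Acot9 and Acot13 (type II) are mitochondrial, and Acot3, Acot4 and Acot6 (type I) and Acot8 (type II) are peroxisomal.

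The type I genes lie side by side on chromosome 12, in the order Acot2, Acot1, Acot4, Acot3, Acot5 and Acot6, with 0 other protein-coding genes between them in RefSeq (GRCm38.p6). The promoters of the 4 type I members measured here are shown because the 3 genes that passed at 3 months and 1 of the 2 that passed at 9 months are among them. Each runs from 250 bases before to 50 bases after the annotated start on the + strand, as in the RefSeq table of that build, and for Acot3 it belongs to the first of 2 entries. Capitals mark AGGTCA, the half-site that PPARα and related receptors recognise, and CCAAT, each on either strand (TGACCT and ATTGG on the opposite one).
Acot2, chr12:83987611-83987910: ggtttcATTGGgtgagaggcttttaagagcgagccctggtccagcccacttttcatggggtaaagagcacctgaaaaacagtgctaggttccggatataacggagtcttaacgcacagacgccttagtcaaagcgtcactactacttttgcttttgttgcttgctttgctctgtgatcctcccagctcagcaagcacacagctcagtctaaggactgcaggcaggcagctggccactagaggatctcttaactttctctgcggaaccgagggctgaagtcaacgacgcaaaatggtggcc
Acot1, chr12:84009252-84009551: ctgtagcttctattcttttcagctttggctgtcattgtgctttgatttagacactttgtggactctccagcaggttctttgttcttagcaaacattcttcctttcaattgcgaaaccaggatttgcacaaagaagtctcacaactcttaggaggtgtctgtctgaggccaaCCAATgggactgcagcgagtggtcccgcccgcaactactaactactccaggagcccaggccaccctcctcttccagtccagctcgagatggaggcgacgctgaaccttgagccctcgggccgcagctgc
Acot4, chr12:84038129-84038428: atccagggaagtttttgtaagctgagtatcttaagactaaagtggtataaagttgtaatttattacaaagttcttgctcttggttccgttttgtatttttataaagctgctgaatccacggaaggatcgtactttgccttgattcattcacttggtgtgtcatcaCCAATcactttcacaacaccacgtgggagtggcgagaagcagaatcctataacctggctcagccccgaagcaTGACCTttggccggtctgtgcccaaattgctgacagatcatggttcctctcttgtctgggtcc
Acot3, chr12:84051894-84052193: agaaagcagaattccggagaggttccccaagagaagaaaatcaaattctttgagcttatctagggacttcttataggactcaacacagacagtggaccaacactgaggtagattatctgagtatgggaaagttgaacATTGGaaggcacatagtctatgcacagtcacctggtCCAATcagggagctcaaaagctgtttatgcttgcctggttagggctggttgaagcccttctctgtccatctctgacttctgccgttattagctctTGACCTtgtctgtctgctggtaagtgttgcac

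The promoters of Acot4 and Acot3 each held 1 AGGTCA on the opposite strand, with its first base at -13 for Acot4 and at 19 for Acot3, counted from the annotated start. Neither the Acot1 nor the Acot2 window held this half-site. AGGTCA occurred on either strand in 16.3% of the 32851 promoters in the table. Its direct repeat with a spacer of 1 base, AGGTCANAGGTCA, occurred in 0.0396% of them and in no member's window. CCAAT was present in all 4 windows, against 37.4% of all promoters, at -79 in Acot1, -85 in Acot4 and -77 in Acot3, and on the opposite strand at -244 in Acot2 and -113 in Acot3. Sequences were found for 8 of the 10 members. Among the members not shown, CCAAT was also present in the windows of Acot8, Acot9 and Acot11, and AGGTCA in that of Acot12. The window of Acot5, which is not a member, held AGGTCA as well as CCAAT.

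A level is given below as log2 of the processed signal relative to the 75th percentile of that array, where a level of 0 equals that percentile. Levels of different probes cannot be set against each other, and each gene is compared with itself across groups. The 10 genes had 12 probes, 2 each for Acot3 and Acot8. For a gene with 2 probes the brighter was used. A gene passed the test when its Benjamini-Hochberg adjusted p, from limma's test over all 20165 features, was under 0.05. The single probe for Acot6, an enzyme known in mouse for phytanoyl-CoA, was not well above background on any of the 8 arrays, and the other 9 genes were measured. All 9 probes were well above background on every array.

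HFD arrays were dimmer, with a 75th percentile of intensity between 185 and 428, against 482 to 597 for the ND arrays. The array of HFD 9 months replicate 2 stood apart at 185, with 40.6% of its spots well above background, against up to 54.1% on the others. All HFD arrays lay on 1 slide and all ND arrays on the other, so diet and slide cannot be told apart. On both slides row 1 held the 3-month arrays and row 2 the 9-month arrays, so feeding time and row cannot be told apart either. Hepatocyte genes were measured for 10 of 10 markers. At 3 months their summed signal was 3880 to 4140 times the array's 75th percentile on HFD arrays and 5660 to 6290 times on ND arrays. At 9 months it was 3820 to 6040 times on HFD arrays and 5180 to 5410 times on ND arrays.

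**Figure D1:**
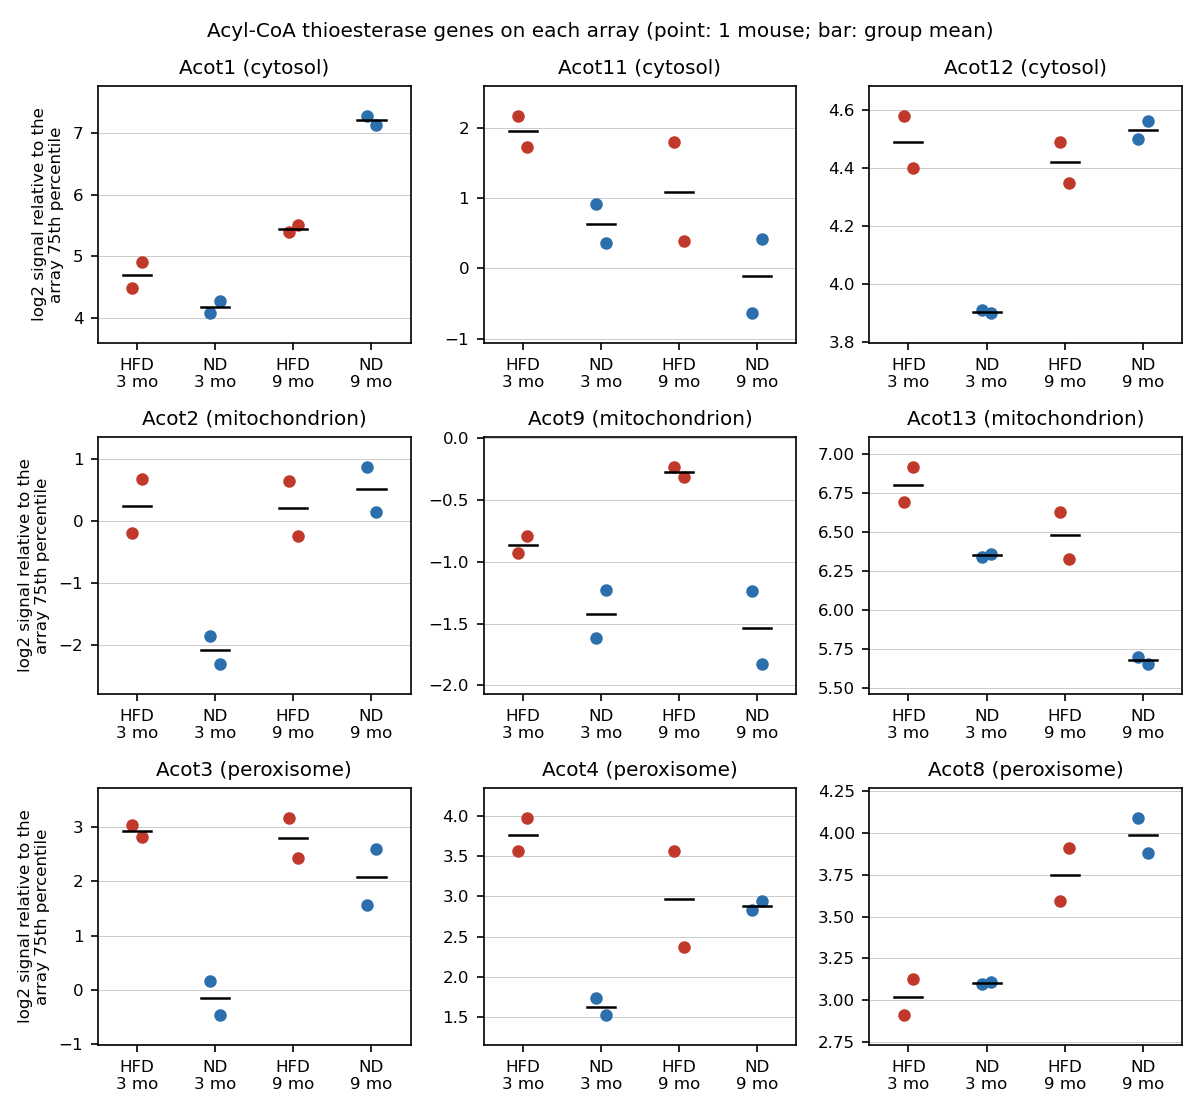
Level of each measured thioesterase gene on every array, as log2 signal relative to the array's 75th percentile, with 1 point per mouse and a bar at the mean of the 2 mice. Acot2, Acot3 and Acot4 were lowest in ND mice at 3 months and Acot1 was highest in ND mice at 9 months. The vertical scale differs between panels.

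At 3 months, 3 of the 9 measured thioesterases were higher in HFD liver than in ND liver and none was lower, all 3 of them type I genes of the chromosome 12 cluster. They were the peroxisomal Acot3 (8.43-fold), the mitochondrial Acot2 (4.99-fold) and the peroxisomal Acot4 (4.42-fold). Over all features 5.18% passed, 1.51% higher and 3.67% lower. The 2 HFD mice lay above the 2 ND mice for 8 of the 9 genes, against 35.6% of all features, and below them for none, against 35.4%. Only Acot8 overlapped. At an unadjusted p under 0.05, 5 of the 9 genes were reached, against 26.3% of all features. The median log2 fold change of the 9 genes was 0.58, and that of all features was -0.01.

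Among the peroxisomal enzymes, Acot3, which acts on long-chain acyl-CoAs in mouse, had levels of 3.04 and 2.82 in HFD mice at 3 months, against 0.17 and -0.47 in ND mice. The groups were far apart, and the log2 fold change was 3.08 ± 0.43 (SE, adjusted p = 0.0224). The second Acot3 probe had levels of 0.87 and 1.01 in HFD mice and of -2.6 and -3.51 in ND mice, where replicate 2 was not well above background. In a fit of all 25801 kept probes its log2 fold change was 3.99 ± 0.46 (SE, adjusted p = 0.0159), a size that rests in part on the ND array that did not measure it. Acot4, which splits succinyl-CoA and other dicarboxylic acyl-CoAs, had levels of 3.56 and 3.98 in HFD mice and of 1.73 and 1.52 in ND mice. Its log2 fold change was 2.14 ± 0.39 (SE, adjusted p = 0.0376). Acot8, a broad peroxisomal thioesterase that also accepts bile acid CoA esters, had levels of 2.91 and 3.13 in HFD mice, which enclosed the levels of 3.1 and 3.11 in ND mice.

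Among the mitochondrial enzymes, Acot2, the matrix thioesterase for long-chain acyl-CoAs, had levels of -0.19 and 0.67 in HFD mice at 3 months, against -1.85 and -2.31 in ND mice. Both HFD mice lay above both ND mice, and the log2 fold change was 2.32 ± 0.45 (SE, adjusted p = 0.0432). Acot9, which accepts short- and long-chain acyl-CoAs, had levels of -0.93 and -0.79 in HFD mice and of -1.62 and -1.23 in ND mice. Acot13, a long-chain thioesterase also called Them2 that binds phosphatidylcholine transfer protein, had levels of 6.69 and 6.92 in HFD mice and of 6.34 and 6.36 in ND mice. Their HFD values lay above their ND values without overlap, but the log2 fold changes of 0.56 ± 0.26 for Acot9 (SE, adjusted p = 0.225) and 0.46 ± 0.19 for Acot13 (SE, adjusted p = 0.192) did not pass.

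None of the 3 cytosolic genes passed at 3 months in limma's test on the scaled signals. Acot1, the cytosolic long-chain thioesterase, had levels of 4.49 and 4.91 in HFD mice and of 4.07 and 4.27 in ND mice, a log2 fold change of 0.53 ± 0.21 (SE, adjusted p = 0.179). Acot11, also called Them1 and known for its induction in brown fat by cold, had levels of 2.18 and 1.74 in HFD mice and of 0.92 and 0.36 in ND mice, a log2 fold change of 1.32 ± 0.56 (SE, adjusted p = 0.196). Acot12, which splits acetyl-CoA, had levels of 4.58 and 4.4 in HFD mice, against 3.91 and 3.9 in ND mice, a log2 fold change of 0.58 ± 0.17 (SE, adjusted p = 0.0984). In each of the 3 genes the groups did not overlap. Acot12 passed with the authors' value table (adjusted p = 0.0392) and with array weights (adjusted p = 0.0301).

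Each call at 3 months needed all 4 of the 3-month arrays. Without any single one of them 0 of the 9 genes passed. Over the whole array fewer features passed without any one of these 4 arrays, which left a lone array in a group. That loss was greater without either ND array than without either HFD array. The log2 fold changes stayed between 2.76 and 3.39 for Acot3, 1.89 and 2.75 for Acot2, and 1.94 and 2.35 for Acot4. Acot4 also missed the threshold without either ND array of 9 months (adjusted p = 0.0553 each time).

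**Figure D2:**
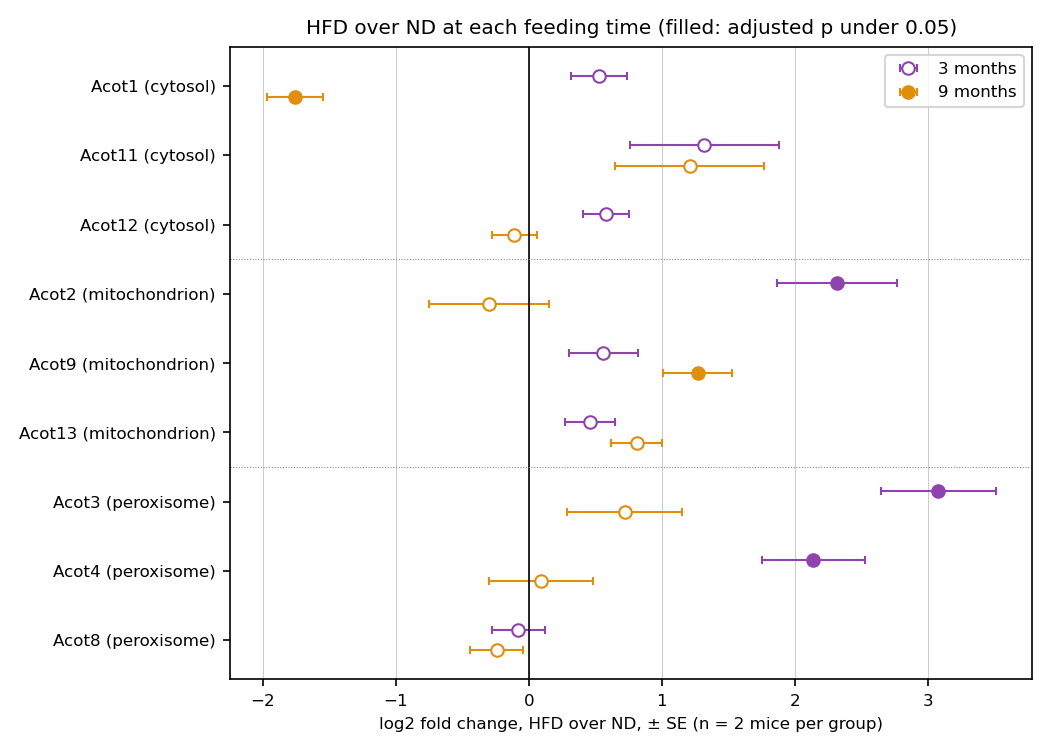
Log2 fold change of HFD over ND for each measured thioesterase gene, at 3 months (upper point of each gene) and at 9 months (lower point), with SE bars and n = 2 mice per group. Filled points passed at an adjusted p under 0.05: Acot2, Acot3 and Acot4 at 3 months, and Acot1 (lower) and Acot9 (higher) at 9 months.

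At 9 months 2 other members passed. Acot1 was 3.39-fold lower and Acot9 was 2.41-fold higher in HFD liver than in ND liver, while Acot2, Acot3 and Acot4 did not pass and their groups overlapped. These 2 calls among 9 genes compare with 8.28% of all features, 3.56% higher and 4.73% lower. Groups were apart for 2 genes higher on HFD (Acot9 and Acot13) and for 2 lower (Acot1 and Acot12), against 28.5% and 26.1% of all features. An unadjusted p under 0.05 was reached by 3 of the 9 genes and by 28.7% of all features. The median log2 fold change was 0.09 over the 9 genes and 0.02 over all features.

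In the cytosol, Acot1 had levels of 5.39 and 5.51 in HFD mice at 9 months, against 7.29 and 7.14 in ND mice. Replicates agreed closely in both groups, and the log2 fold change was -1.76 ± 0.21 (SE, adjusted p = 0.0108). This call held with any one of the 8 arrays left out, at log2 fold changes of -1.84 to -1.69. It was lost with array weights (adjusted p = 0.0539), with only the arrays of the 2 groups compared (0.0762) and without the filter on dim probes (0.0541). Acot11 had levels of 1.8 and 0.39 in HFD mice and of -0.64 and 0.42 in ND mice, with the largest spread of any member and overlapping groups (adjusted p = 0.212 in limma's test). Acot12 had levels of 4.49 and 4.35 in HFD mice and of 4.5 and 4.56 in ND mice, which did not overlap but nearly touched (log2 fold change -0.11 ± 0.17, SE, adjusted p = 0.709).

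In mitochondria, Acot9 had levels of -0.23 and -0.31 in HFD mice at 9 months and of -1.24 and -1.83 in ND mice. The log2 fold change was 1.27 ± 0.26 (SE, adjusted p = 0.0388). It stayed between 0.97 and 1.57 with any one array left out, but passed only without ND 9 months replicate 1. The 7 other omissions gave adjusted p values of 0.0605 to 0.141. Acot13 had levels of 6.63 and 6.33 in HFD mice, against 5.7 and 5.65 in ND mice, and its log2 fold change of 0.81 ± 0.19 just missed the threshold (SE, adjusted p = 0.0531). Without HFD 9 months replicate 2, the dim array, it was 0.95 and passed (adjusted p = 0.0365), as it did under 4 of the other alternatives. Acot2 had levels of 0.64 and -0.24 in HFD mice and of 0.87 and 0.14 in ND mice, with overlapping groups (adjusted p = 0.697).

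In peroxisomes none of the 3 measured genes passed at 9 months. Acot3 had levels of 3.17 and 2.42 in HFD mice and of 1.57 and 2.59 in ND mice. Its log2 fold change was 0.72 ± 0.43 (SE, adjusted p = 0.325), and that of its second probe was 0.44 ± 0.46 (SE, adjusted p = 0.582 over all kept probes). Acot4 had levels of 3.57 and 2.37 in HFD mice, which enclosed the ND levels of 2.83 and 2.94 (adjusted p = 0.909). Acot8 had levels of 3.59 and 3.91 in HFD mice and of 4.09 and 3.88 in ND mice, again with overlap (adjusted p = 0.473). The second Acot8 probe had levels of 2.59 and 2.42 in HFD mice and of 3.17 and 3.04 in ND mice, so its groups were apart, with a log2 fold change of -0.6 ± 0.18 that did not pass (SE, adjusted p = 0.0969).

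The difference between the diet effects at the 2 times, tested directly as an interaction in limma, did not pass for any of the 9 genes or for any feature (0% of 20165). At an unadjusted p under 0.05 it reached 5 of the 9 genes, against 7.62% of all features. The 5 were the 4 measured type I genes and Acot12, and in each the diet effect was less positive at 9 months than at 3 months. In Acot1 and Acot12 the groups were apart in opposite directions at the 2 times, against 4.17% of all features. The differences of the log2 fold changes, 9 minus 3 months, were -2.62 ± 0.63 for Acot2 (SE, adjusted p = 0.423), -2.36 ± 0.61 for Acot3 (SE, adjusted p = 0.474), -2.29 ± 0.3 for Acot1 (SE, adjusted p = 0.271), -2.06 ± 0.56 for Acot4 (SE, adjusted p = 0.504) and -0.69 ± 0.24 for Acot12 (SE, adjusted p = 0.599). Acot9 had a difference of 0.7 ± 0.37 and Acot13 one of 0.35 ± 0.27 (SE, adjusted p = 0.713 and 0.777). A gene past the threshold at one time and not at the other is therefore not shown to differ between them.

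The 2 structural types had unlike medians. Over the 4 measured type I genes of 5, the median log2 fold change on HFD was 2.23 at 3 months and -0.11 at 9 months. Over the 5 type II genes it was 0.56 at 3 months and 0.81 at 9 months. By site, the medians at 3 months were 2.14 for the 3 peroxisomal genes measured of 4, 0.56 for the 3 mitochondrial genes and 0.58 for the 3 cytosolic genes. At 9 months they were 0.09 for the peroxisomal, 0.81 for the mitochondrial and -0.11 for the cytosolic genes. Each site mixed genes that passed with genes that did not.

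**Figure D3:**
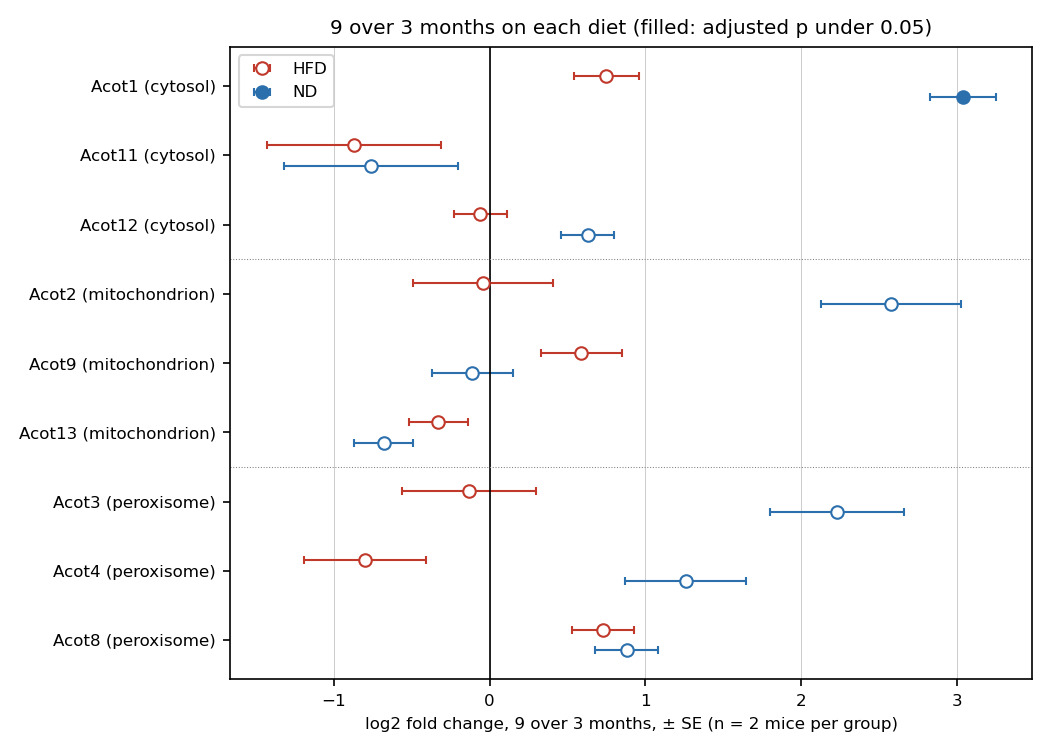
Log2 fold change of 9 over 3 months for each measured thioesterase gene, on HFD (upper point of each gene) and on ND (lower point), with SE bars and n = 2 mice per group. The filled point, Acot1 on ND, is the only one with an adjusted p under 0.05, and Acot2, Acot3 and Acot4 on ND had log2 fold changes of 2.58, 2.23 and 1.26.

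With feeding time 1 thioesterase passed, and it did so on the normal diet. Acot1 was 8.23-fold higher at 9 months than at 3 months in ND liver, against 1.04% of all features, 0.441% higher and 0.595% lower. An unadjusted p under 0.05 was reached by 7 of the 9 genes and by 15.9% of all features. Its log2 fold change was 3.04 ± 0.21 (SE, adjusted p = 0.00721), from the levels of 7.29 and 7.14 at 9 months and of 4.07 and 4.27 at 3 months given above. It missed the threshold without either ND array of 3 months (adjusted p = 0.139 without replicate 1 and 0.132 without replicate 2) or without ND 9 months replicate 1 (0.0623), at log2 fold changes of 2.94 to 3.14. The 2 ND mice of 9 months lay above those of 3 months for 6 of the 9 genes, against 23.4% of all features, and below them for Acot13, against 37.1%. These ND mice of 9 months are also the group that HFD is compared with at 9 months. For Acot1, and for any gene below called in both comparisons, the calls share this group and are not separate evidence.

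The other type I genes had large differences on ND that did not pass. Acot2 was 5.99-fold higher at 9 months (log2 fold change 2.58 ± 0.45, SE, adjusted p = 0.0634), Acot3 was 4.68-fold higher (2.23 ± 0.43, SE, adjusted p = 0.0827) and Acot4 was 2.39-fold higher (1.26 ± 0.39, SE, adjusted p = 0.207). All 3 comparisons rest on the same ND 3-month arrays as the diet comparison at 3 months, so the 2 sets of values share their low group and are not separate evidence. Acot8 had a log2 fold change of 0.88 ± 0.2 (SE, adjusted p = 0.109), and its second probe one of 0.86 ± 0.18 (SE, adjusted p = 0.102 over all kept probes). Acot12 stood at 0.63 ± 0.17 (SE, adjusted p = 0.155), Acot13 at -0.68 ± 0.19 (SE, adjusted p = 0.168), Acot11 at -0.76 ± 0.56 (SE, adjusted p = 0.6) and Acot9 at -0.11 ± 0.26 (SE, adjusted p = 0.898). The median was 0.88 over the 9 genes and -0.07 over all features.

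On HFD none of the 9 genes passed between 9 and 3 months, and 2 reached an unadjusted p under 0.05. Over all features 0.00992% passed, 0.00496% higher and 0.00496% lower, and 15.5% reached the unadjusted threshold. The 9-month mice lay above the 3-month mice for Acot1, Acot8 and Acot9, against 21% of all features, and below them for Acot13, against 23.3%. Acot1 had a log2 fold change of 0.75 ± 0.21 (SE, adjusted p = 0.222) and Acot8 one of 0.73 ± 0.2 (SE, adjusted p = 0.213), while the second Acot8 probe stood at 0.1 ± 0.18 (SE, adjusted p = 0.788 over all kept probes), so the 2 Acot8 probes disagreed here. Acot4 stood at -0.8 ± 0.39 (SE, adjusted p = 0.374). Without HFD 9 months replicate 1 it stood at -1.4, where the dim replicate 2 was the only HFD array of 9 months left. Acot2 and Acot3 lay at -0.04 ± 0.45 and -0.13 ± 0.43 (SE, adjusted p = 0.974 and 0.895).

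**Figure D4:**
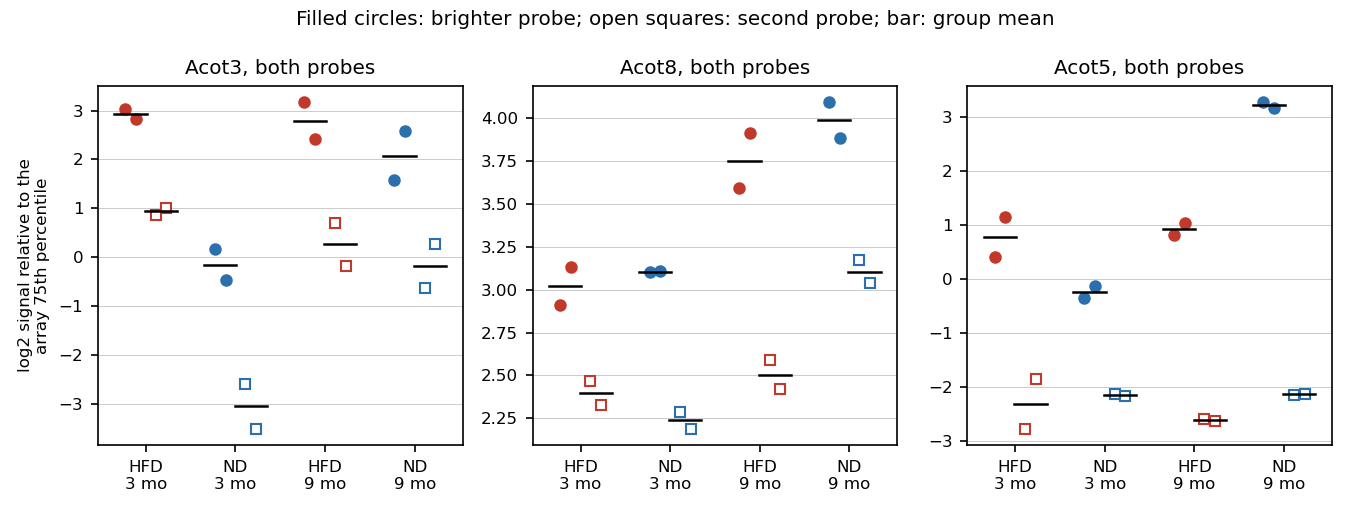
Levels of both probes of Acot3, Acot8 and Acot5 on every array (circles for the brighter probe, squares for the second), as log2 signal relative to the array's 75th percentile, with bars at the means of 2 mice. Both Acot3 probes were lowest in ND mice at 3 months, whereas the brighter Acot5 probe was highest in ND mice at 9 months and its second probe was not.

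The order of the 4 groups set the members apart. For Acot1 the order was ND 9 months, HFD 9 months, HFD 3 months and ND 3 months, and no neighbours in it overlapped. For Acot2, Acot3 and Acot4 the ND 3-month mice were lowest, clear of the other 3 groups, among which the ND 9-month mice overlapped the HFD 9-month mice in each gene. For Acot9 both HFD groups lay above both ND groups, with HFD 9 months on top, and the 2 ND groups overlapped. Acot13 had ND 9 months lowest, clear of the rest, and the brighter Acot8 probe had both 9-month groups above both 3-month groups. With the second Acot8 probe the HFD levels of 2.59 and 2.42 at 9 months overlapped those of 2.47 and 2.33 at 3 months. Acot12 had ND 3 months lowest, clear of the other groups, and the groups of Acot11 overlapped their neighbours in the order HFD 3 months, HFD 9 months, ND 3 months and ND 9 months.

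Nearest relatives of the family were measured for 10 of 13 listed genes, with Olah, Them5 and Them6 not well above background. Acot5, the peroxisomal medium-chain enzyme of the same cluster, had levels of 0.81 and 1.03 in HFD mice at 9 months, against 3.28 and 3.17 in ND mice, a 4.94-fold lower level (log2 fold change -2.3 ± 0.28, SE, adjusted p = 0.0108). On ND it was 11.1-fold higher at 9 than at 3 months (3.47 ± 0.28, SE, adjusted p = 0.0146), where its 3-month levels were -0.35 and -0.13. The second Acot5 probe did not show this, with log2 fold changes of -0.48 ± 0.31 between diets at 9 months (SE, adjusted p = 0.358) and 0.01 ± 0.31 with time on ND (SE, adjusted p = 0.992). The cluster's genes are close in sequence and cross-hybridisation between their probes was not tested.

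Of the other relatives, Acnat2, a peroxisomal enzyme that joins fatty acids to taurine in mouse, had levels of 3.87 and 3.13 in HFD mice at 3 months, against 1.57 and 0.94 in ND mice (log2 fold change 2.24 ± 0.45, SE, adjusted p = 0.0467). Its second probe gave 2.36 ± 0.36 (SE, adjusted p = 0.0262 over all kept probes). On ND it was 11.8-fold higher at 9 than at 3 months (3.56 ± 0.45, SE, adjusted p = 0.0315). Baat, which conjugates bile acids to amino acids, had levels of 0.89 and 1.94 in HFD mice at 9 months, against 2.95 and 3.17 in ND mice, a 3.14-fold lower level (-1.65 ± 0.34, SE, adjusted p = 0.0394). Acot10, a close homologue of Acot9, passed as higher in HFD liver at 9 months (adjusted p = 0.0399), but its probe was well above background on only 1 of the 2 HFD arrays and on neither ND array. It had been kept through the HFD mice of 3 months, and no fold is given. Acot7, Them4, Acnat1, Ppt1, Ppt2 and Fasn passed in none of the comparisons. The list as a whole had 1 gene higher and 0 lower at 3 months, against 1.51% and 3.67% of all features. At 9 months 1 was higher and 2 were lower, against 3.56% and 4.73%. With time on ND 2 were higher, against 0.441%. The list medians in these comparisons were 0.53, 0.15 and 0.01.

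Genes whose levels followed a member most closely over the 8 arrays were ranked by the root-mean-square difference of mean-centred log2 values, with members left out. For Acot1, which had an SD of 1.24 over the arrays, these included Acot5 at 0.276 and Cyp4a32 at 0.293. Acot4 (SD 0.89) was nearest to Enc1 and Lonrf3, both at 0.278, and to Abca9 at 0.291. Acot9 (SD 0.57) was nearest to Gpat2 at 0.105, Wls at 0.111 and Rcn1 at 0.121. Acot2 (SD 1.19) was nearest to Sla at 0.344, Tor3a at 0.351 and Cgref1 at 0.376, and Acot3 (SD 1.37) to Lyve1 at 0.546, Enc1 at 0.557 and 4930579G24Rik at 0.562. These are descriptions over 8 arrays that share the slide layout above.

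**Figure D5:**
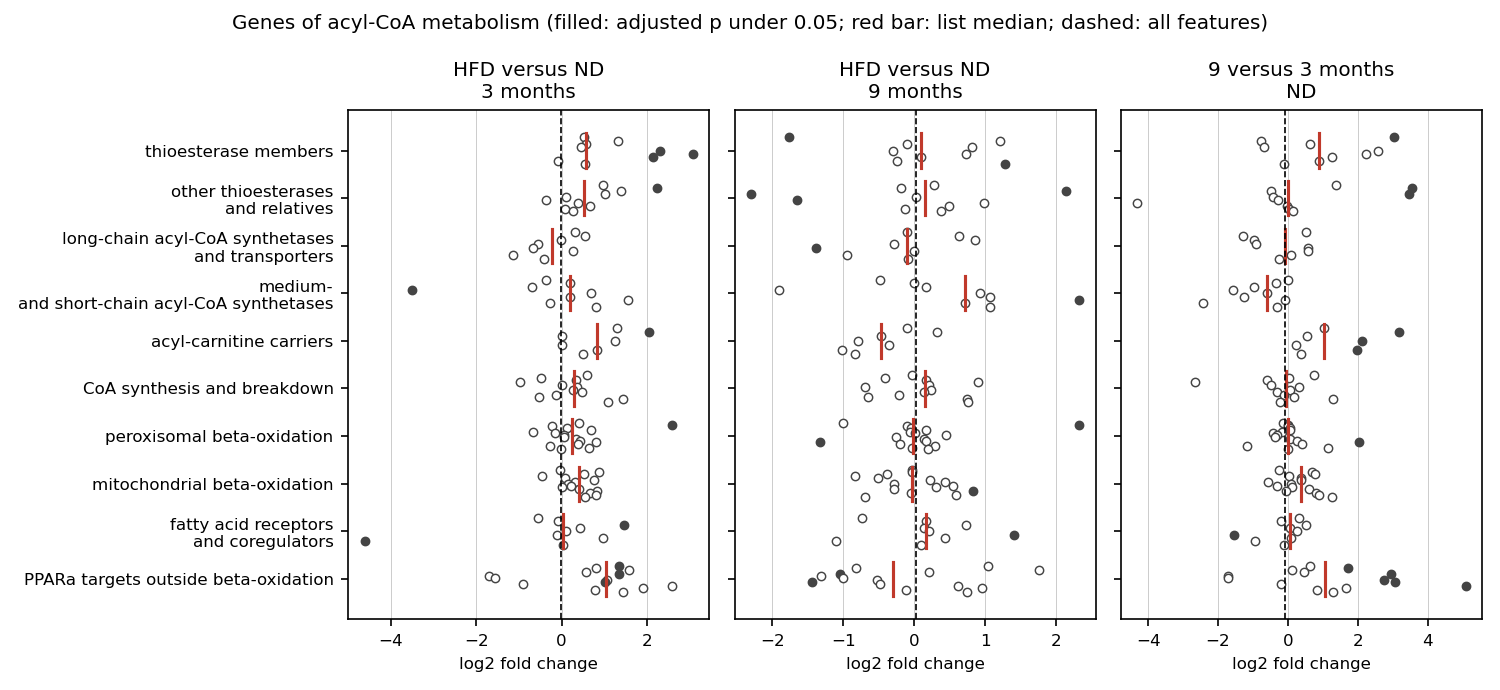
Log2 fold change of each measured gene in the thioesterase family and in 9 lists of neighbouring steps, for HFD over ND at 3 and at 9 months and for 9 over 3 months on ND. Filled points have an adjusted p under 0.05, red bars are list medians and the dashed line is the median of all features. The PPARα targets outside beta-oxidation had medians of 1.04, -0.3 and 1.06 in the 3 panels.

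PPARα targets outside beta-oxidation were the list with the most calls beside the thioesterases. At 3 months 3 of 14 measured genes were higher in HFD liver and 0 were lower, against 1.51% higher over all features. Since 0 features passed without either ND array of 3 months, these and all other list calls at 3 months, and likewise those with time on ND, rest on both of those arrays. The 3 higher genes were Cyp4a10 (log2 fold change 1.34 ± 0.2, SE, adjusted p = 0.0252) and Cyp4a31 (1.03 ± 0.21, SE, adjusted p = 0.0478), fatty acid hydroxylases, and Aldh3a2 (1.36 ± 0.25, SE, adjusted p = 0.0384), a fatty aldehyde dehydrogenase. HFD mice lay above ND mice for 11 of the 14, against 35.6% of all features, and below them for 3, against 35.4%. Those 3 were Cyp4a12a, Cyp4a12b and Fabp1, with log2 fold changes of -1.71, -1.55 and -0.91 that did not pass. At 9 months Cyp4a31 was 2.71-fold and Cyp4a10 2.07-fold lower in HFD liver (adjusted p = 0.0161 and 0.0334) and 0 were higher. Over all features 4.73% were lower and 3.56% higher. On ND, 5 of 14 were higher at 9 than at 3 months, against 0.441% of all features. Among them were Cyp4a31 (8.32-fold), Cyp4a10 (7.68-fold), Cyp4a14 (6.74-fold) and Fgf21, the fasting hormone of liver (34-fold). Cyp4a12a and Cyp4a12b were lower with time on ND, at log2 fold changes of -1.72 and -1.7, and did not pass. Cyp4a10 had levels of 8.27 and 8.11 in HFD mice and of 9.33 and 9.14 in ND mice at 9 months, with HFD 3 months at 7.7 and 7.57 and ND 3 months at 6.48 and 6.11, which is the same order of groups as for Acot1.

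The carnitine route into mitochondria gave 1 call at 3 months, Cpt1b, a carnitine palmitoyltransferase, which was higher in HFD liver (log2 fold change 2.06 ± 0.27, SE, adjusted p = 0.018). Over all features 1.51% passed as higher at that time. None of the 7 measured genes of 8 passed at 9 months. On ND, 3 were higher at 9 than at 3 months, against 0.441% of all features. They were Cpt1b (9.11-fold, adjusted p = 0.0162), Crat, the carnitine acetyltransferase (4.32-fold, adjusted p = 0.0314), and Slc22a5, the carnitine transporter (3.97-fold, adjusted p = 0.0333). The ND levels of Cpt1b at 3 months were low, at -3.47 and -3.61. On replicate 2 of that group the second Acot3 probe, at -3.51, was not well above background. The size of the Cpt1b differences may therefore rest in part on an array that did not measure it. The medians of the list were 0.84 at 3 months, -0.47 at 9 months and 1.04 with time on ND.

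Calls among beta-oxidation genes compare with 5.18% of all features at 3 months, 8.28% at 9 months and 1.04% with time on ND. In the peroxisome, 1 of 16 genes passed at 3 months, Abcd2, a transporter of very long-chain acyl-CoAs, which was higher in HFD liver (log2 fold change 2.6 ± 0.5, SE, adjusted p = 0.0424). At 9 months Abcd2 was again higher (2.32 ± 0.5, SE, adjusted p = 0.0431), and Ehhadh, the bifunctional enzyme of the pathway, was 2.52-fold lower (adjusted p = 0.0139). With time on ND, Ehhadh was 4.14-fold higher at 9 than at 3 months (adjusted p = 0.0187), a difference that shares the ND mice of 9 months with the diet comparison. In the mitochondrion, 0 of 15 genes passed at 3 months, and at 9 months Hadh was 1.76-fold higher in HFD liver (adjusted p = 0.0498). List medians were 0.24 and 0.4 at 3 months for the peroxisomal and the mitochondrial genes, and -0.02 and -0.04 at 9 months.

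Synthetases make the substrates of the thioesterases. Calls in them and in the lists below compare with 5.18% of all features at 3 months, 8.28% at 9 months and 1.04% with time on ND. Of 8 measured long-chain synthetases and transporters of 10, 0 passed at 3 months, and Slc27a1 was 2.61-fold lower in HFD liver at 9 months (adjusted p = 0.0446). Of 9 measured medium- and short-chain synthetases of 10, Acsm2 was at least 4.12-fold lower in HFD liver at 3 months (adjusted p = 0.0336), being not well above background on either HFD array. For such a bound each dim array was given the higher of the probe's own signal and the dimmest signal that still counted as well above background there. The Acsm2 probe was kept only through ND mice, where it was high, so its call is not separate from the filter on dim probes. Acss1, an acetyl-CoA synthetase of mitochondria, was higher in HFD liver at 9 months (adjusted p = 0.0349). Its levels were -2.03 and -1.39 in HFD mice and -3.36 and -4.69 in ND mice. On ND 9 months replicate 2 the Acot10 probe, at -4.34, was not well above background. The Acss1 level of -4.69 on that array was lower still, so no fold is given. None of the 12 measured genes of 14 for the making and breakdown of coenzyme A passed in any comparison. Of 9 receptors and coregulators, Nr1i3 was 2.75-fold higher in HFD liver at 3 months (adjusted p = 0.0253). Ppargc1b was at least 12.9-fold lower there (adjusted p = 0.0329), again not well above background on either HFD array of 3 months. Its probe, too, was kept only through ND mice. Pparg was 2.64-fold higher in HFD liver at 9 months (adjusted p = 0.0107) and 2.88-fold lower at 9 than at 3 months on ND (adjusted p = 0.0271).

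Markers of other liver cells moved with some of these contrasts. In bulk liver, fewer cells of a type and less RNA per cell cannot be told apart. Calls below compare with 1.51% of all features higher and 3.67% lower at 3 months, and with 3.56% and 4.73% at 9 months. Hepatocyte markers gave 0 calls of 10 at 3 months at a median of -0.53, but 9 of 10 were lower in both HFD mice than in both ND mice (35.4% of all features) and 5 had an unadjusted p under 0.05. They gave 0 higher and 1 lower at 9 months at a median of -0.26. The markers of lipid-associated macrophages gave 2 of 5 higher in HFD liver at 3 months and 3 of 5 at 9 months, where their summed signal was 15.1 to 18.3 times the array's 75th percentile on HFD and 6.08 to 8.21 times on ND. General macrophage and Kupffer cell markers gave 0 calls of 7 measured of 8, with sums at 9 months of 106 to 180 on HFD and 117 to 374 on ND and at 3 months of 86.5 to 108 on HFD and 54.6 to 64.4 on ND. At 3 months 6 of the 7 were higher in both HFD mice than in both ND mice (35.6% of all features), at a median of 1.54. At 9 months 0 were apart as higher and 1 as lower (28.5% and 26.1%), at a median of -0.04. With time on ND 5 were apart as higher (23.4%), at a median of 2.43, and 0 were called. Stellate cell markers gave 2 of 6 higher at each time, and endothelial markers 1 of 5 higher at 3 months and 0 at 9 months. T and B cell markers had 2 of 4 measured and 0 called. Their sums were 1.33 to 1.64 on HFD and 4.84 to 5.49 on ND at 3 months. At 9 months they were 1.44 to 4.12 on HFD and 4.58 to 5.63 on ND. The 2 markers went opposite ways, at log2 fold changes of -2.17 and 1.38 at 3 months and -1.17 and 0.96 at 9 months. A sum therefore does not describe both. Of 4 cholangiocyte markers 2 were measured and 0 passed. Of 5 adipocyte markers only Cidec was well above background, and the defining Adipoq, Lep, Plin1 and Retn were not. The part of these cells in the thioesterase values was not tested.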

How the data were processed

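Liver RNA from 8 mice was hybridised to 1-colour Agilent arrays, 1 per mouse, in 4 groups of 2. Per the file headers and the submitters' processing notes, the authors made each array file with Agilent Feature Extraction 10.7.1.1. The deposited processed signal is, per the file headers, an intensity from which background was subtracted and spatial trends removed, with no scaling from array to array. The array annotation uses mm9. The background flags deposited by the authors are other values, coded 0 or 1. The deposited value table holds log2 values that, as checked on the files, are quantile-normalized median signals. Arrays have no read depth, and 2 mice per group limit the precision.

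Here control spots (3671) and flagged outlier spots were left out, log2 processed signals (pseudocount 0) were scaled to each array's 75th percentile and spots of a probe were averaged. A probe was kept if both arrays of some group had it well above background (25801), 1 brightest probe per gene was used (20165 features), and the 4 group means were fitted with limma 3.58.1 in R 4.3.3 (4 residual degrees of freedom, prior 2.33). Calls used a threshold of 0.05 on the Benjamini-Hochberg adjusted p. The code was tested on simulated data. A test of 2 against 2 by exact permutation cannot go below 0.333. Symbols came from unversioned RefSeq accessions (26056 probes matched). Members, gene lists and markers were chosen with earlier results of these data known. All members and their listed relatives are named, and from each other list up to 4 genes past the threshold with the smallest p. Alternatives covered normalization, background correction, the authors' value table, the dim-probe filter, probe choice, moderation, array weights, the arrays fitted, a replicate block and leaving out each array. Arrays of a group are separate mice, per the labels. Figures were drawn with Python 3.11.15 and matplotlib 3.10.9. Of the genes ranked by likeness to a member, 1 is not reported here.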

Additional observations from a re-analysis of the deposited data

Results flagged for a closer look

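In 2 genes the mice of the 2 diets were apart in opposite directions at the 2 feeding times, as they were for 4.17% of all features. Acot1 levels were higher in HFD than in ND mice at 3 months and lower at 9 months, with a difference of the log2 fold changes (9 minus 3 months) of -2.29 ± 0.3 (SE, adjusted p = 0.271 in limma's interaction test, unadjusted p = 0.000203). Acot12 showed the same at a smaller size, with a difference of -0.69 ± 0.24 (SE, adjusted p = 0.599, unadjusted p = 0.0261), and its 9-month groups nearly touched, at 4.49 and 4.35 in HFD mice and 4.5 and 4.56 in ND mice. Neither difference passed the adjusted test.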

How the results depend on the processing

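Each of the 9 genes was recomputed under 19 alternatives per comparison (18 for the difference of diet effects, to which the fit of only the 2 groups compared does not apply). No member passed for the difference under any of the alternatives. At 3 months the count of members called was 3, and it was 0 without the filter on dim probes (68 features called) and 1, Acot3, with the replicate block, but 4, with Acot12 added, with the authors' value table and with array weights; it ranged from 0 to 3 with 1 array left out. At 9 months the count was 2, and it was 0 without the dim-probe filter, 0 with array weights and 0 with only the arrays of the 2 groups compared (0 features called, 3907 at an unadjusted p under 0.05), and 1, Acot1, with the replicate block, but 3, with Acot13 added, with quantile normalization, the authors' value table, probes above background everywhere and moderation by trend and robust; it ranged from 1 to 2 with 1 array left out. For time on HFD the count was 0, and 0 to 1 with 1 array left out. For time on ND the count was 1, and it was 2 with the authors' value table (Acot1 and Acot8), 0 without the dim-probe filter, 2 when only probes above background everywhere were used and 2 with moderation by trend and robust (Acot1 and Acot2 both times), and 7 with array weights; it ranged from 0 to 1 with 1 array left out. The mouse numbers do not pair the samples: deviations of same-numbered arrays correlated at -0.02 to 0.14 between groups, so the replicate block only adjusts for a shared number. A lone array left in a group was assumed to vary like the other groups. The calls over all features shifted too. In the main fit they were 1045 at 3 months, 1670 at 9 months and 209 with time on ND. They were 3972, 276 and 1409 with array weights, and 1240, 1984 and 324 with moderation by trend and robust. With the replicate block they were 803, 1358 and 56, and without the filter on dim probes 68, 274 and 5. Without the filter 37084 features were tested. Other causes were not tested.

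Acot3 passed at 3 months under 14 of 19 alternatives (2.76 to 3.54), Acot2 under 13 (1.65 to 2.75) and Acot4 under 11 (1.94 to 2.35). Acot1 passed at 9 months under 16 of 19 (-1.84 to -1.63) and with time on ND under 15 (2.94 to 3.17), and Acot9 passed at 9 months under 8 (0.97 to 1.57). Signs turned only for small differences that never passed. Acot8 at 3 months was 0.04 with the authors' value table and 0.04 with the mean of its probes, and -0.19 to 0.03 with 1 array left out. At 9 months Acot2 ranged from -0.74 to 0.14 and Acot4 from -0.51 to 0.69 with 1 array left out. The difference of diet effects ranged from -0.82 to 0.6 for Acot11 and from -0.31 to 0 for Acot8. With time on HFD, Acot12 was 0 with the authors' value table and -0.15 to 0.03 with 1 array left out, Acot2 ranged from -0.48 to 0.4 and Acot3 from -0.51 to 0.24. With time on ND, Acot9 ranged from -0.41 to 0.19. The slide could not be fitted as a block, since each slide holds 1 diet.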
